A study of Mus musculus with 6 samples.

Results

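The genes described here encode 48 nucleolar ribosome assembly factors, chosen by name from the 56748 genes of the count table as proteins of the small nucleolar ribonucleoproteins (snoRNPs), general nucleolar proteins, and factors that build the small or the large ribosomal subunit. Poly(A) RNA was sequenced from wild-type mouse CD4 T cells that had been purified as naive cells, from spleen by the labels and from spleen and lymph nodes of C57BL/6 mice by the study's methods, and kept for 3 days under conditions that drive regulatory T cell (Treg) differentiation. The cells were not sorted after culture. Of the 6 libraries, 3 are labelled scrambled ASO and 3 are labelled Pgam ASO, after the antisense oligonucleotide (ASO) in the culture medium. The Pgam ASO was designed against the isoforms of phosphoglycerate mutase, a glycolytic enzyme, and the comparison asks how the transcriptome of differentiating Tregs differs when it is present. Each library held between 15860476 and 18032805 counts. The study describes the libraries of a group as biological replicates, and whether these were separate mice or separate cultures is not given in the sources used here, so the p-values measure the spread between replicates of that kind.

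Ribosomes are assembled mostly in the nucleolus. RNA polymerase I transcribes a long precursor RNA there, box C/D snoRNPs add methyl groups to it, H/ACA snoRNPs convert chosen uridines to pseudouridine, and large sets of assembly factors fold and cut it while ribosomal proteins join. The factors then leave the particle and are used again. T cells enlarge their nucleoli and make many ribosomes when they leave quiescence and begin to divide, and genes of this group are well-known targets of the transcription factor MYC.

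The targeted transcripts were examined first. Values are CPM, counts scaled to library sizes adjusted by TMM factors, given throughout for replicates 1, 2 and 3 of the libraries labelled scrambled ASO and then for replicates 1, 2 and 3 of those labelled Pgam ASO, and fold changes are Pgam ASO over scrambled ASO with their standard error. *Pgam1* was at 599.6, 478 and 707 CPM against 658, 661 and 707 CPM (log2 fold change 0.18 ± 0.13, adjusted p = 0.331). *Pgam2* was at 5.23, 6.75 and 2.85 CPM against 2.98, 2.69 and 2.6 CPM (log2 fold change -0.84 ± 0.31, adjusted p = 0.0854). Neither transcript was called different and *Pgam1* was not lower, so the groups are named here by their labels, and every direction below is a direction between labelled groups. These are RNA levels, and the libraries do not measure the protein, which the study assayed separately by flow cytometry. In *Pgam1* transcripts 37.1% of 31-base stretches also occur elsewhere, chiefly in a pseudogene.

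The libraries also differed within groups. As a measure of distance, the chi-square of the counts per degree of freedom was 27.6 between replicates 2 and 3 of the scrambled ASO group, larger than the 17.4 between replicate 3 of the scrambled ASO group and replicate 3 of the Pgam ASO group. Between replicates 1 and 3 of the Pgam ASO group it was 20.8. No pair of libraries was alike enough to be a repeat of 1 library, the closest pair being replicates 1 and 3 of the scrambled ASO group at 7.51.

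All 48 assembly genes passed the filter on low counts, and the lowest count of any of them in any library was 558, for *Wdr74*. Across the 14936 genes tested, 2565 (17.2%) were called at an adjusted p under 0.05, 1199 of them (8.03%) higher and 1366 (9.15%) lower in the libraries labelled Pgam ASO. Of the 48 assembly genes, 23 (47.9%) were called higher. None was called lower by edgeR, DESeq2 or limma-voom, and none was lower at an unadjusted p under 0.05 by any of these tools. The log2 fold change was positive for 47 of the 48 genes, with a median of 0.45, a 1.36-fold difference, against a median of -0.01 over all genes tested. In 27 of the 48 genes every Pgam ASO library lay above every scrambled ASO library, which was so for 19.6% of all genes tested. A further 11 genes had an adjusted p between 0.05 and 0.10.

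The count of calls moved with single libraries. It was 3 without replicate 1 of the scrambled ASO group, 7 without replicate 2 of that group, 4 without replicate 1 of the Pgam ASO group and 40 without replicate 3 of the Pgam ASO group, where 1.45%, 3.25%, 2.1% and 10.2% of all genes tested were called higher. Without replicate 2 of the Pgam ASO group edgeR called 0 assembly genes and 1.03% of all genes higher, and 28 assembly genes were higher at an unadjusted p under 0.05. For this fit the share of all genes at that unadjusted threshold was not taken. With all 6 libraries 5214 of 14936 genes tested had an unadjusted p under 0.05, in either direction. The median log2 fold change lay between 0.33 and 0.56 over the 6 fits that leave out 1 library. *Rrp9*, *Utp18* and *Tcof1* were called in 5 of these fits, and no assembly gene in all 6.

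**Figure D1:**
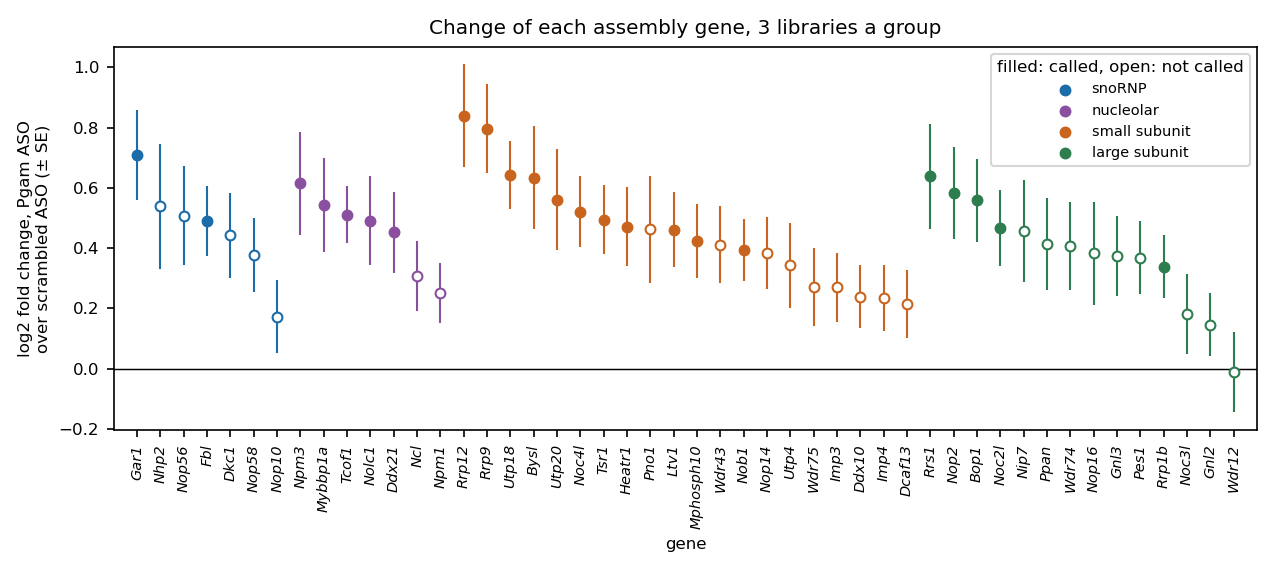
Log2 fold change (Pgam ASO over scrambled ASO, 3 libraries a group) of each of the 48 assembly genes, ordered within 4 classes, with bars for the standard error. Filled points are the 23 genes called at an adjusted p under 0.05, and the values run from -0.01 for *Wdr12* to 0.84 for *Rrp12*.

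The assembly genes followed a common order across libraries. Replicate 2 of the scrambled ASO group was the lowest of the 6 libraries for 45 of the 48 genes, whereas it was the lowest for 29.7% of all genes tested. Replicate 1 of the Pgam ASO group was the highest for 46 of the 48, against 25.3% of all genes tested. Taking each gene relative to its own mean over the libraries, the median log2 level of the 48 genes was -0.14, -0.42 and -0.09 in the scrambled ASO replicates and 0.43, 0.27 and -0.06 in the Pgam ASO replicates. Replicate 3 of the Pgam ASO group sat next to replicates 1 and 3 of the scrambled ASO group. It exceeded every scrambled ASO library for 27 of the 48 genes, while replicates 1 and 2 of the Pgam ASO group did so for 48 and 46. The share of all genes tested for which a single Pgam ASO library did so was not taken. For the 3 Pgam ASO libraries together it was 19.6%. Together the 48 genes took 0.697%, 0.594% and 0.728% of scaled counts in the scrambled ASO libraries and 1.01%, 0.913% and 0.742% in the Pgam ASO libraries. In bulk RNA, a change in the number of cells of a type and a change in RNA per cell cannot be told apart.

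**Figure D2:**
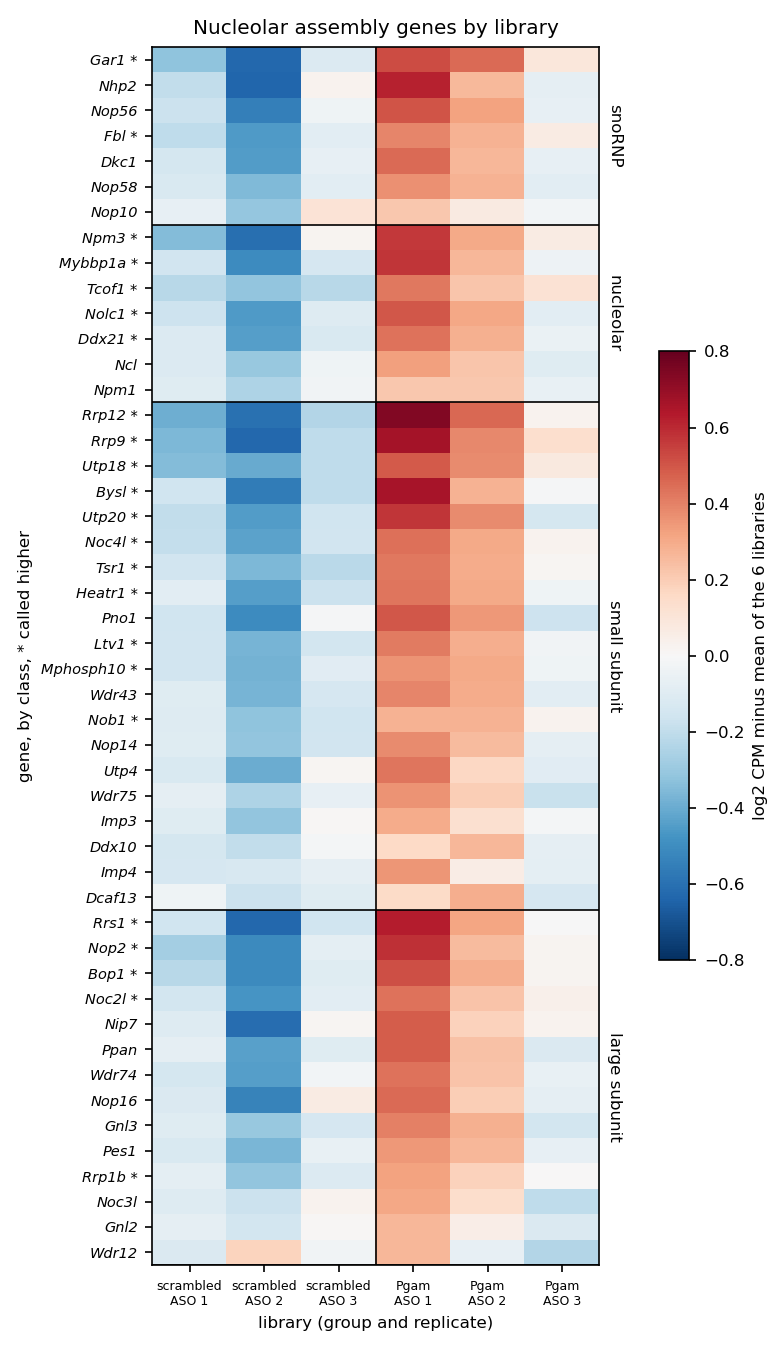
Log2 CPM of the 48 assembly genes in each of the 6 libraries, minus the gene's mean over the libraries, with genes in rows by class and called genes starred. Replicate 2 of the scrambled ASO group is the lowest for 45 genes and replicate 1 of the Pgam ASO group the highest for 46.

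The snoRNP class holds the core proteins of the RNA-guided modification enzymes. Of its 7 genes, 2 rose (28.6%) and 5 were not called, with a median log2 fold change of 0.49. Among the H/ACA proteins, *Gar1* (ENSMUSG00000028010, GRCm38 chr3:129824912-129831396) was at 42.4, 34.3 and 49.3 CPM against 76.4, 72.9 and 56.5 CPM (log2 fold change 0.71 ± 0.15, adjusted p = 0.0153), with every Pgam ASO library above every scrambled ASO library. *Nhp2*, which helps hold the guide RNA in the H/ACA particle, was at 88.9, 65.6 and 104 CPM against 156, 122 and 97.2 CPM (log2 fold change 0.54 ± 0.21, adjusted p = 0.109). Its replicate 3 of the Pgam ASO group lay below replicate 3 of the scrambled ASO group. *Dkc1*, the pseudouridine synthase itself, was at 131, 106 and 138 CPM against 198, 174 and 138 CPM (log2 fold change 0.44 ± 0.14, adjusted p = 0.0548), with the groups overlapping at replicate 3. *Nop10*, the smallest protein of the complex, was at 40.0, 33.6 and 45 CPM against 48.4, 44 and 41.2 CPM (log2 fold change 0.17 ± 0.12, adjusted p = 0.343). Its groups overlapped.

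Among the box C/D proteins, *Fbl*, which encodes the methyltransferase fibrillarin, rose from 141, 119 and 153 CPM to 213, 197 and 169.8 CPM (log2 fold change 0.49 ± 0.12, adjusted p = 0.0225). In *Fbl* transcripts 21.8% of 31-base stretches also occur elsewhere, chiefly in *Tulp4*, and with the counts of such genes added *Fbl* was no longer called (log2 fold change 0.26, adjusted p = 0.0669). The sum takes in all counts of those genes, their own reads included, so it is not a measure of *Fbl* alone. *Nop56*, a scaffold of the particle, was at 297, 229 and 327 CPM against 475, 418 and 321 CPM (log2 fold change 0.51 ± 0.16, adjusted p = 0.0604). Replicate 3 of the Pgam ASO group fell between the scrambled ASO libraries. Its partner *Nop58* was at 195, 166 and 199.7 CPM against 272, 256 and 199.9 CPM (log2 fold change 0.38 ± 0.12, adjusted p = 0.0587), and replicate 3 of each group differed by less than 1 CPM.

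Within 3 complexes whose proteins work together, the member with the highest fold change was set against the member with the lowest. These pairs were chosen after their values were seen, so the direction follows from the choice and carries no test. Relative to the mean of the scrambled ASO libraries, *Gar1* over *Nop10* was 1.003, 0.964 and 1.03 in the scrambled ASO libraries and 1.49, 1.57 and 1.30 in the Pgam ASO libraries. Here the groups did not overlap. *Nop56* over *Nop58* was 1.01, 0.913 and 1.08 against 1.15, 1.08 and 1.06, with overlapping groups. In the PeBoW complex of large-subunit assembly, *Bop1* over *Wdr12* was 1.11, 0.743 and 1.14 against 1.42, 1.53 and 1.44.

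**Figure D3:**
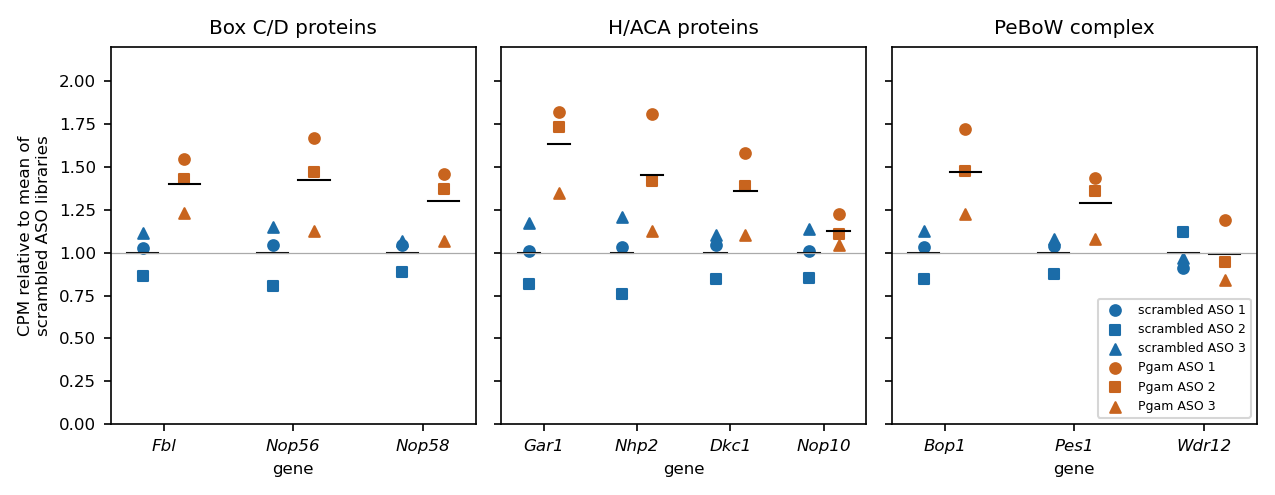
CPM of the genes of the box C/D, H/ACA and PeBoW complexes in each library, divided by the mean of the 3 scrambled ASO libraries, with marker shape for the replicate and bars for group means. *Gar1* and *Bop1* are separated between groups, while *Nop10* and *Wdr12* overlap.

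The general nucleolar class had the largest share of calls of the 4 classes, with 5 of 7 genes (71.4%) higher and a median log2 fold change of 0.49, although differences between classes were not tested. *Npm3*, a nucleoplasmin-family chaperone, was at 49.1, 41.2 and 63.5 CPM against 92.5, 77.1 and 65.6 CPM (log2 fold change 0.61 ± 0.17, adjusted p = 0.0385). *Mybbp1a*, which encodes an abundant nucleolar MYB-binding protein, was at 368, 289 and 374 CPM against 610.2, 493 and 399 CPM (log2 fold change 0.54 ± 0.16, adjusted p = 0.0429). *Tcof1*, which encodes the RNA polymerase I cofactor treacle, was at 215, 201 and 215 CPM against 336, 293 and 272 CPM (log2 fold change 0.51 ± 0.09, adjusted p = 0.00952). The scrambled ASO libraries were close together for *Tcof1*, and all Pgam ASO libraries lay above them. *Nolc1*, a chaperone of snoRNPs, and *Ddx21*, an RNA helicase, also rose, with log2 fold changes of 0.49 and 0.45 (adjusted p = 0.0484 and 0.0444). The remaining pair are among the best known nucleolar proteins. *Ncl*, nucleolin, was at 1196, 1047 and 1259 CPM against 1624, 1504 and 1209 CPM (log2 fold change 0.31 ± 0.12, adjusted p = 0.0914). *Npm1*, nucleophosmin, was at 1067, 963 and 1116 CPM against 1324, 1323 and 1094 CPM (log2 fold change 0.25 ± 0.10, adjusted p = 0.102), and 29.4% of its 31-base stretches are shared, mainly with pseudogenes. For both, replicate 3 of the Pgam ASO group lay within the range of the scrambled ASO group.

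Of the 20 small-subunit factors, 11 rose (55%), 9 were not called, and the median log2 fold change was 0.44. The 3 with the highest fold change act in the processome that forms on the nascent precursor or in its later export. *Rrp12* (ENSMUSG00000035049, GRCm38 chr19:41862851-41896173), a HEAT-repeat protein of the pre-ribosome, was at 50.1, 43.3 and 55.8 CPM against 109.7, 90.4 and 66.9 CPM (log2 fold change 0.84 ± 0.17, adjusted p = 0.0152). *Rrp9*, the protein specific to the U3 snoRNP, was at 46.3, 38.3 and 51.5 CPM against 94, 77.2 and 65.1 CPM (log2 fold change 0.80 ± 0.15, adjusted p = 0.00956). *Utp18*, a WD-repeat subunit of the UTP-B complex, was at 62.5, 60.1 and 69.1 CPM against 112, 103 and 84 CPM (log2 fold change 0.64 ± 0.11, adjusted p = 0.008). For all 3 genes the lowest Pgam ASO library, replicate 3, exceeded the highest scrambled ASO library.

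The other called small-subunit factors had log2 fold changes from 0.39 to 0.63. They were *Bysl*, *Utp20*, *Noc4l*, *Tsr1*, *Heatr1*, *Ltv1*, *Mphosph10* and *Nob1*, with *Nob1* the endonuclease that makes the last cut of the small-subunit RNA. For *Tsr1* 33.2% of stretches are shared, chiefly with *Srr*, which overlaps it on the opposite strand, and *Tsr1* was still called when such genes were added (log2 fold change 0.37, adjusted p = 0.0426). Here too the sum holds the other genes' own reads.

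Among the 9 that were not called, *Wdr43* and *Nop14* lay just past the threshold. *Wdr43*, a UTP-A subunit, was at 152, 126 and 149 CPM against 214, 200.3 and 154 CPM (log2 fold change 0.41 ± 0.13, adjusted p = 0.0513). *Nop14*, the partner of *Noc4l*, was at 67.6, 58.1 and 64.9 CPM against 93.8, 86.2 and 68.6 CPM (log2 fold change 0.38 ± 0.12, adjusted p = 0.0522). Groups did not overlap for either gene, although replicate 3 of the Pgam ASO group exceeded the highest scrambled ASO library by little. *Pno1*, which encodes a partner of the *Nob1* endonuclease, was at 54, 42.4 and 59.9 CPM against 84.9, 76.7 and 53.6 CPM (log2 fold change 0.46 ± 0.18, adjusted p = 0.102). *Utp4*, another UTP-A subunit, was at 92.9, 76.6 and 102 CPM against 136, 114 and 94.9 CPM (log2 fold change 0.34 ± 0.14, adjusted p = 0.116). In both, replicate 3 of the Pgam ASO group was below the highest scrambled ASO library. *Wdr75*, also of UTP-A, was at 79.5, 70.5 and 80.1 CPM against 108, 96 and 74 CPM (log2 fold change 0.27 ± 0.13, adjusted p = 0.166).

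The remaining small-subunit factors had the lowest fold changes of the class. *Imp3*, which binds *Imp4* and *Mphosph10* in a complex on the U3 snoRNA, was at 55.9, 48 and 60.1 CPM against 73.4, 65.2 and 59.1 CPM (log2 fold change 0.27 ± 0.11, adjusted p = 0.121). *Imp4* itself was at 75, 75 and 78.1 CPM against 105, 85.7 and 77.6 CPM (log2 fold change 0.23 ± 0.11, adjusted p = 0.16). Of this 3-protein complex *Mphosph10* alone was called (log2 fold change 0.42 ± 0.12, adjusted p = 0.0408); whether its change differs from that of its partners was not tested. *Ddx10*, an RNA helicase, was at 60.0, 57.7 and 65.2 CPM against 73.7, 79.4 and 63 CPM (log2 fold change 0.24 ± 0.10, adjusted p = 0.13). *Dcaf13*, a WD-repeat processome protein, was at 69.4, 63.1 and 66.5 CPM against 79, 87.2 and 64.7 CPM (log2 fold change 0.21 ± 0.11, adjusted p = 0.203). For *Ddx10* and *Dcaf13* the highest library was replicate 2, not replicate 1, of the Pgam ASO group.

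Of the 14 large-subunit factors, 5 rose (35.7%), 9 were not called, and the median log2 fold change was 0.39. *Rrs1*, a regulator of large-subunit assembly, was at 59.3, 42.8 and 59.3 CPM against 103, 82.6 and 66.1 CPM (log2 fold change 0.64 ± 0.17, adjusted p = 0.038). *Nop2*, which encodes a methyltransferase of large-subunit RNA, was at 102, 86.1 and 116 CPM against 184, 146 and 125 CPM (log2 fold change 0.58 ± 0.15, adjusted p = 0.0315). *Bop1*, of the PeBoW complex, was at 104, 85.1 and 113 CPM against 173, 149 and 123 CPM (log2 fold change 0.56 ± 0.14, adjusted p = 0.0256). The groups did not overlap for these genes. *Noc2l* and *Rrp1b* were called as well, with log2 fold changes of 0.47 and 0.34, *Rrp1b* at the edge of the threshold (adjusted p = 0.0498).

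The other PeBoW genes were not called. *Pes1* was at 107, 90.7 and 112 CPM against 148, 141 and 111 CPM (log2 fold change 0.37 ± 0.12, adjusted p = 0.0611), with 34.8% of its 31-base stretches shared, mainly with pseudogenes. *Wdr12* (ENSMUSG00000026019, GRCm38 chr1:60069785-60098645) was at 54.1, 66.3 and 57.4 CPM against 70.6, 56.1 and 49.8 CPM (log2 fold change -0.01 ± 0.13, adjusted p = 0.962). *Wdr12* departed from the common order of libraries: replicate 2 of the scrambled ASO group was its second highest library and replicate 3 of the Pgam ASO group its lowest. It was the only member with a negative fold change, and the sign turned positive without replicate 2 of the scrambled ASO group or without replicate 2 or 3 of the Pgam ASO group (0.08, 0.02 and 0.10).

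*Nip7*, an RNA-binding factor, was at 48.7, 34.3 and 52.9 CPM against 73.4, 59.5 and 53.5 CPM (log2 fold change 0.46 ± 0.17, adjusted p = 0.0884). *Ppan* was at 86.1, 67 and 84.8 CPM against 127, 107 and 83.8 CPM (log2 fold change 0.41 ± 0.15, adjusted p = 0.0863). *Wdr74* was at 37.1, 30.1 and 40.3 CPM against 55.3, 47.9 and 39.2 CPM (log2 fold change 0.41 ± 0.15, adjusted p = 0.0772). In each the lowest library was replicate 2 of the scrambled ASO group and the highest replicate 1 of the Pgam ASO group. *Nop16* was at 50.4, 37.6 and 57.2 CPM against 74.8, 62.6 and 51.9 CPM (log2 fold change 0.38 ± 0.17, adjusted p = 0.143). *Gnl3*, the GTPase nucleostemin, was at 113, 97.7 and 109.8 CPM against 159, 147 and 109 CPM (log2 fold change 0.37 ± 0.13, adjusted p = 0.0756). Its relative *Gnl2*, also a nucleolar GTPase, was at 80.1, 76.2 and 84.6 CPM against 101, 87.4 and 77.8 CPM (log2 fold change 0.15 ± 0.11, adjusted p = 0.355). *Noc3l*, a partner of *Noc2l*, was at 35.7, 34.1 and 39.1 CPM against 47.6, 42.4 and 33.4 CPM (log2 fold change 0.18 ± 0.13, adjusted p = 0.361). For *Gnl2* and *Noc3l* the difference was within 1.5 standard errors of 0, and replicate 3 of the Pgam ASO group was at or near the bottom of the 6 libraries.

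Level and fold change were compared within the 48 genes. Across genes, which are not independent replicates and share the same libraries, Spearman's rho between log2 mean CPM and log2 fold change was 0.085 and Pearson's r was -0.008.

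Other genes of the pathway were taken from a list of 104 further assembly factors. Of these, 31 (29.8%) were called higher, against 8.03% of all genes tested. The fold change was positive for 99 of the 104, and their median log2 fold change was 0.30. edgeR called 0 lower, with 1 lower at an unadjusted p under 0.05. DESeq2, limma-voom, and edgeR with library size alone or with at least 10 counts in every library each called 1 lower. By kind, 4 of 10 snoRNP assembly genes, 9 of 43 small-subunit genes and 18 of 51 large-subunit genes were higher, with medians of 0.40, 0.26 and 0.31. The 5 highest were *Pinx1* (10.1, 9.24 and 12.8 CPM against 22, 20.2 and 13.4 CPM; log2 fold change 0.80 ± 0.20, adjusted p = 0.0273), *Rrp15*, *Mrto4*, *Rpf2* and *Pwp2*, with log2 fold changes of 0.69, 0.69, 0.63 and 0.62 for the last 4. *Pinx1* encodes a nucleolar protein that also binds telomerase. The 5 lowest were *Nsa2* (174, 177 and 169 CPM against 142, 149 and 148 CPM; log2 fold change -0.24 ± 0.08, adjusted p = 0.0509), *Nop53*, *Sbds*, *Ddx52* and *Zfp622*, at -0.17, -0.09, -0.02 and -0.02 for the last 4. None of these was called by edgeR with TMM scaling and its usual filter. *Nsa2* was the gene called lower by DESeq2 (adjusted p = 0.0364), by limma-voom (adjusted p = 0.0495), and by edgeR with library size alone (adjusted p = 0.0356) or at least 10 counts in every library (adjusted p = 0.042). *Sbds* and *Zfp622* act on large subunits that have already reached the cytoplasm. The count for this list fell to 3, 7 and 2 without replicate 1 or 2 of the scrambled ASO group or replicate 1 of the Pgam ASO group, was 0 without replicate 2 of the Pgam ASO group, with 43 higher at an unadjusted p under 0.05 by edgeR, and was 57 without replicate 3 of the Pgam ASO group. The share of all genes at the unadjusted threshold was not taken for the fit that gave the 43.

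Few calls were made among the genes for proteins of the finished ribosome. Of 84 genes for cytosolic ribosomal proteins and their close relatives tested, 1 was called higher (*Rpl22l1*, 0.54) and 2 lower (*Rpl30*, -0.58, and *Rps27rt*, -1.09), genes named after their values were seen and called in 2, 2 and 4 of the 6 fits that leave out 1 library. Over all genes tested 8.03% were higher and 9.15% lower. Stretches shared with other genes were not examined for this list, and counts can be split between near-identical genes. Over all 84 genes the median log2 fold change was 0.04, and 0.01 with library size alone as the scaling, under which 3 were lower. No test of the difference between these lists was made.

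**Figure D4:**
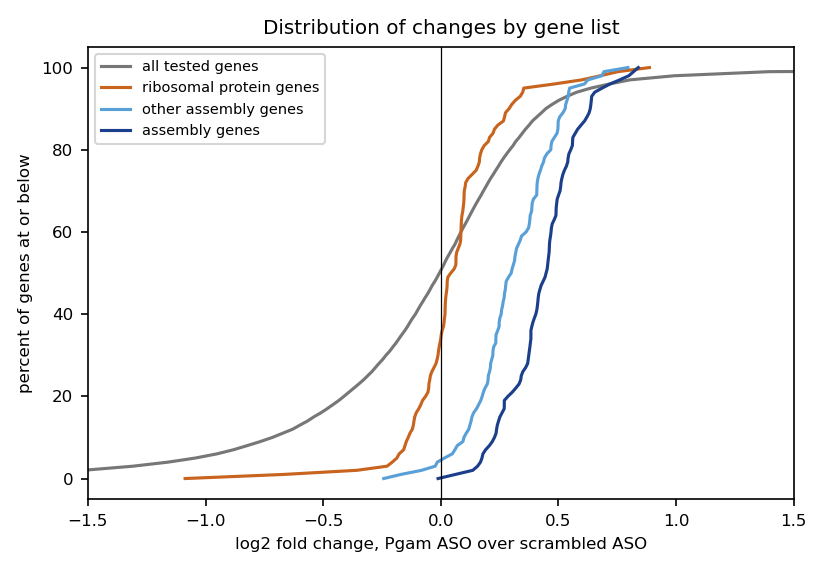
Percent of genes at or below each log2 fold change (Pgam ASO over scrambled ASO) for the 48 assembly genes, 104 other assembly genes, 84 ribosomal protein genes and 14936 tested genes, drawn between -1.5 and 1.5. The medians are 0.45, 0.30, 0.04 and -0.01.

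RNA polymerase I makes the precursor on which these factors work. Of its 11 subunit and initiation factor genes, 2 were higher by edgeR, 5 by DESeq2 and 3 with RLE scaling. In the same order, 8.03%, 10.4% and 8.14% of all genes tested were higher. The fold change was positive for 9 of the 11 genes, and their median log2 fold change was 0.29. *Polr1b*, the second largest subunit, was at 63.3, 51.7 and 62.5 CPM against 106, 92.9 and 75.9 CPM (log2 fold change 0.63 ± 0.13, adjusted p = 0.0138). *Rrn3*, an initiation factor, was at 78.5, 65.8 and 78 CPM against 109.7, 105 and 85.4 CPM (log2 fold change 0.43 ± 0.11, adjusted p = 0.0309). *Polr1b* was called in 5 and *Rrn3* in 2 of the 6 fits that leave out 1 library. H/ACA proteins also stabilise telomerase RNA, and of 4 telomerase partner genes 1 was higher by edgeR, against 8.03% of all genes tested. This was *Naf1*, which loads onto H/ACA particles before *Gar1* replaces it, at 40.0, 31.8 and 40.0 CPM against 53, 57.7 and 51.5 CPM (log2 fold change 0.54 ± 0.11, adjusted p = 0.0142). *Tert*, the catalytic subunit, was at 13, 14.1 and 12.6 CPM against 10.6, 11.2 and 12.1 CPM (log2 fold change -0.23 ± 0.14, adjusted p = 0.255).

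Of 9 MYC network genes tested, 2 were higher and 3 lower, against 8.03% higher and 9.15% lower over all genes tested. *Myc* itself was at 309.8, 251 and 306 CPM against 283, 269.7 and 239 CPM (log2 fold change -0.13 ± 0.10, adjusted p = 0.406). *Mxd1*, which encodes a partner of MAX that represses MYC targets, was at 133, 159 and 124 CPM against 37.3, 47.1 and 67.6 CPM (log2 fold change -1.45 ± 0.21, adjusted p = 0.00569), and it was called in each of the 6 fits that leave out 1 library. *Mxd4*, of the same family, was at 103, 161 and 89.6 CPM against 26.8, 32.4 and 51.9 CPM (log2 fold change -1.67 ± 0.32, adjusted p = 0.0213), called in 2 of those 6 fits. For both genes the Pgam ASO libraries lay below all scrambled ASO libraries, with replicate 3 the nearest to them. *Mxd3* went the other way and was not called (log2 fold change 0.34 ± 0.15, adjusted p = 0.145). *Mxi1* (-0.17 ± 0.14, adjusted p = 0.421) and *Mnt* (-0.05 ± 0.11, adjusted p = 0.748) were not called either. *Max* fell by 0.36 on the log2 scale (adjusted p = 0.0262), *Mlx* rose by 0.46 (adjusted p = 0.0252) and *Mycl*, at 2.01 CPM or less in every library, rose by 1.32. They were called in 3, 2 and 2 of those 6 fits. Any part of these genes in the levels of assembly genes was not tested.

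Because the 48 genes followed a common order across libraries, their promoters were examined for 3 short motifs on both strands, in windows from 250 bases before to 50 bases after the annotated start (RefSeq, GRCm38.p6). Windows matched 40 of the 48 genes by symbol. *Fbl*, *Npm1*, *Tcof1*, *Rrp12*, *Gnl2*, *Dcaf13*, *Rrs1* and *Bop1* had no entry. The E-box CACGTG, the letters bound by MYC with MAX and by several other factors, occurred in 11 of 40 (27.5%), compared with 11.7% of 10014 tested genes with a window and 8.09% of all 27025 genes in the promoter table. It occurred in 15.3% of 85 other assembly genes and 9.23% of 65 ribosomal protein genes. The ETS-like motif CCGGAAG occurred in 16 of 40 (40%), compared with 20.6% of tested genes and 9.93% of all genes. It was as common in the other assembly genes (41.2%) and ribosomal protein genes (40%). TATAAA occurred in 3 of 40 (7.5%), compared with 8.57% and 15.7%. The E-box was present in 6 of the 18 called genes with a window (33.3%) and 5 of the 22 not called (22.7%). For the ETS-like motif this was 9 of 18 (50%) and 7 of 22 (31.8%), and for TATAAA 0 of 18 and 3 of 22 (13.6%). Differences between called and not called genes were not tested. A match is a description of the letters only, and no match to 1 of the 3 motifs can overlap a match to another.

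Most of the 11 E-boxes lay after the annotated start. Those of *Nop2*, *Imp4* and *Utp18* began 60, 121 and 20 bases before it. As the E-boxes that lay before the start, they are printed with the flanking bases that precede it. *Nop2* and *Utp18* were called and *Imp4* was not. Capitals mark the E-box, and each runs 5′ to 3′ on the strand of the gene: *Nop2* at chr6:125131796-125131855 on the plus strand, *Imp4* at chr1:34439681-34439740 on the plus strand and *Utp18* at chr11:93885767-93885813 on the minus strand.
Nop2: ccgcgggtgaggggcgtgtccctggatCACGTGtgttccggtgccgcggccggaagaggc
Imp4: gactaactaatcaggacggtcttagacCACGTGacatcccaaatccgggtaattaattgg
Utp18: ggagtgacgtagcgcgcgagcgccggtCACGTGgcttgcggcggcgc

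Some assembly genes carry snoRNA genes in their own introns, so that splicing of the host transcript releases the guide RNA. In the GENCODE annotation 8 of the 48 genes (16.7%) held 23 snoRNA genes between their start and end on their own strand, compared with 196 of 11908 tested protein-coding genes (1.65%). The hosts were *Nop56*, *Nop58*, *Dkc1*, *Ncl*, *Wdr43*, *Tsr1*, *Ppan* and *Gnl3*, of which *Tsr1* was called. The libraries were made from poly(A) RNA, and the snoRNAs themselves were not analysed here.

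Several other measurements differed between the groups, and their part in the assembly gene result was not tested. Of 13 proliferation genes 7 were higher by edgeR and 11 by DESeq2, against 8.03% and 10.4% of all genes tested. By edgeR, 11 of the 13 proliferation genes had an unadjusted p under 0.05, as had 5214 of all 14936 genes tested. The median log2 fold change of the 13 was 0.41. In 12 of the 13 every Pgam ASO library lay above every scrambled ASO library, which was so for 19.6% of all genes tested. The list summed to 5717, 4902 and 5933 CPM against 6591, 6794 and 6378 CPM. The gene whose groups overlapped was *Mki67*, its most abundant gene by the mean over the 6 libraries (the measure used for each list below), at 1433, 1280.1 and 1375 CPM against 1319.6, 1425 and 1335 CPM (log2 fold change -0.00 ± 0.08, adjusted p = 0.982). The share of counts from mitochondrially encoded genes was 1.95%, 2.12% and 1.93% in the scrambled ASO libraries and 1.24%, 1.44% and 1.32% in the Pgam ASO libraries. Of 12 mitochondrial mRNAs tested, 9 were lower, against 9.15% of all genes tested. A pair of other mitochondrially encoded transcripts went the other way, the small ribosomal RNA *mt-Rnr1* (log2 fold change 1.12 ± 0.12, adjusted p = 0.000768) and the tRNA *mt-Tp* (log2 fold change 1.54 ± 0.12, adjusted p = 0.000251), both higher. Each of this pair was called in all 6 fits that leave out 1 library.

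Markers of CD4 T cells were present in all libraries, with 8 of 8 tested, and summed to 3138, 3369.8 and 2953 CPM against 2504, 2647 and 2779.7 CPM. Of these, 2 were lower by edgeR, *Cd28* (log2 fold change -0.66 ± 0.09, adjusted p = 0.00183) and *Trac* (log2 fold change -0.30 ± 0.09, adjusted p = 0.0416), and 3 by DESeq2 or with library size alone. By edgeR with TMM scaling 9.15% of all genes tested were lower. The median log2 fold change of the 8 markers was -0.29. An unadjusted p under 0.05 by edgeR was found for 7 of the 8, and for 5214 of all 14936 genes tested. In 7 every Pgam ASO library lay below every scrambled ASO library, which was so for 19.8% of all genes tested. *Cd4* was the most abundant. Among B cell markers, *Ighm* was the most abundant and was lower, at 319.9, 447 and 216 CPM against 75.6, 111 and 142 CPM (log2 fold change -1.58 ± 0.33, adjusted p = 0.0282), while *Cd79a*, *Cd79b* and *Ms4a1* were each at 5.35 CPM or less. *Ighm* was highest in replicate 2 of the scrambled ASO group and lowest in replicate 1 of the Pgam ASO group, the reverse of the order of the assembly genes. The 2 CD8 T cell markers summed to 11.3, 13.5 and 10.8 CPM against 14.6, 10.9 and 15.7 CPM, with *Cd8a* higher (log2 fold change 1.12 ± 0.29, adjusted p = 0.0286), while the more abundant *Cd8b1* was at 8.78, 10.4 and 8.61 CPM against 7.58, 7.25 and 9.41 CPM (log2 fold change -0.20 ± 0.18, adjusted p = 0.454). The 5 mast cell and basophil markers summed to 6.36, 7.29 and 7.37 CPM against 5.03, 5.45 and 5.74 CPM, with *Kit* the most abundant over all libraries and lower, at 5.29, 5.4 and 6.01 CPM against 0.932, 1.48 and 2.78 CPM (log2 fold change -1.68 ± 0.35, adjusted p = 0.0142). *Cpa3*, which exceeded *Kit* in replicates 1 and 2 of the Pgam ASO group, was at 0.957, 1.51 and 0.744 CPM against 2.55, 2.25 and 2.13 CPM (log2 fold change 1.09 ± 0.34, adjusted p = 0.0526), with every Pgam ASO library above every scrambled ASO library, and this was also so of *Mcpt8* and *Fcer1a*, which were not tested because of low counts and were at 0.994 CPM or less in every library. *Ms4a2* was not tested either, and its groups overlapped. *Cd28* was called in all 6 fits that leave out 1 library, *Kit* and *Cd8a* in 4, *Trac* and *Ighm* in 2 and *Cpa3* in 1. With all 6 libraries *Cpa3* was called by DESeq2 (adjusted p = 0.0458) and limma-voom (adjusted p = 0.0469). edgeR called *Cpa3* with at least 10 counts in every library (adjusted p = 0.0411) or no filter (adjusted p = 0.0399). It did not with RLE scaling (adjusted p = 0.0516), library size alone (adjusted p = 0.0626) or a replicate block (adjusted p = 0.0873). Of 7 myeloid markers 4 were tested and summed with the rest to 5.68, 4.7 and 2.73 CPM against 6.46, 4.88 and 5.09 CPM, with *Lyz2* the most abundant. The 3 NK cell markers summed to 2.42, 2.21 and 2.35 CPM against 5.9, 3.91 and 2.49 CPM, with *Klrk1* the most abundant and *Klrb1c* at 0 in all libraries. The 6 erythroid markers summed to 2.87, 2.32 and 1.55 CPM against 1.55, 2.12 and 2.49 CPM, with *Alas2* the most abundant and *Hba-a2* at 0 in all libraries. Of the 7 genes of the myeloid, NK cell and erythroid lists that were tested, edgeR, DESeq2 and limma-voom called 0 on the same kept genes and all 6 libraries, and 1, *Klrk1*, had an unadjusted p under 0.05 by edgeR (log2 fold change 0.83). edgeR called *Klrk1* with no filter on low counts (adjusted p = 0.0478) and without replicate 3 of the Pgam ASO group (adjusted p = 0.0258).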

How the data were processed

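RNA was sequenced from 6 libraries, 3 in each group, grouped by their GEO titles. The authors aligned reads with Kallisto, whose version and annotation are not given in the sources used here (the submitters' processing notes name GRCm38), and deposited gene counts as whole numbers, not normalized. Symbols, positions and snoRNA genes were taken from GENCODE M21, which held 52073 of the 56748 genes.

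Counts were filtered with filterByExpr, scaled with TMM and tested with edgeR 4.0.16 (robust quasi-likelihood test, two-sided, group alone as factor, R 4.3.3). P-values were adjusted by Benjamini-Hochberg over all 14936 genes kept, and an adjusted p under 0.05 was a call. Log2 levels used a prior count of 2. Code was tested on simulated data. Alternatives were DESeq2 1.42.0 (the study's tool), limma-voom (limma 3.58.1), RLE scaling, library size alone, other count filters, leaving out ribosomal protein and mitochondrial genes, a replicate block, leaving out each library, other thresholds, and adding the counts of genes that share at least 10% of a member's 31-base stretches, which 8 of the 48 have. Counts of estimated reads from near-identical genes can be split between them, and the strand setting is not given in the sources used here.

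The members and lists were chosen with earlier results of these data known, so no p-value is given for a list. The promoter motifs, ratios within complexes, counts of highest and lowest libraries and counts of snoRNA hosts were chosen after the data were seen. By rule, library values were given in each class for the 3 highest and 2 lowest fold changes and for members not called, to which *Fbl* was added after its values were seen, and of the other assembly genes the 5 highest and 5 lowest were named. RNA polymerase I, telomerase partner and MYC network genes could be named beside their list's count, as could *Pgam1* and *Pgam2*. Genes of the marker, proliferation, mitochondrial and ribosomal protein lists were named after their values were seen, and *Rps19bp1* and *Rpl7l1*, which are not ribosomal proteins, were then taken out of the last list. *Polr1f*, *Polr1g*, *Polr1h*, *Nopchap1* and *Terc* were not matched and not analysed here, and 1 gene of the marker lists and the sum of its list are not reported here.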

Additional observations from a re-analysis of the deposited data

How the results depend on the processing

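With a replicate block edgeR called 1235 genes, 9 assembly genes higher and 10 other assembly genes higher. Of all genes tested, 3.21% were higher with this block. Deviations of libraries with equal numbers correlated at 0.0534, -0.034 and -0.237, which gave no sign that the numbers pair the samples. The labels do not say whether they do. At an adjusted p under 0.01 the counts were 453, 3 and 0, and with a log2 fold change of 0.5 or more in size they were 1609, 13 and 12. In that order, 1.16% and 3.82% of all genes tested were higher. At an unadjusted p under 0.05 by edgeR, 61 other assembly genes were higher, and 5214 of all 14936 genes tested passed in either direction. With no filter on low counts 38 assembly genes and 50 other assembly genes were higher. Of 28512 genes tested in that fit, 3732 were called and 6.43% were higher. The causes were not tested. Leaving out each library in turn gave 391 to 3484 genes called, 0 to 40 assembly genes higher and 0 to 57 other assembly genes higher. With all 6 libraries these were 2565, 23 and 31, so the counts moved both down and up. Each such fit had fewer samples, and the cause of the moves was not tested. Of the 23 called assembly genes, 23 were called by DESeq2 (34 in all) and 20 by limma-voom (20 in all). Of all genes tested, DESeq2 called 10.4% higher and limma-voom 7.84%. No assembly gene was called lower by any alternative, with 0 lower at an unadjusted p under 0.05 in each. The median log2 fold change of the assembly genes stayed within 0.33 and 0.56 over all alternatives. Signs that reversed belonged to genes not called. Over the fits without 1 library these were *Wdr12* (-0.16 to 0.10; 0.08, 0.02 and 0.10 where reversed), *Zfp622* (-0.095 to 0.0575; 0.0263 and 0.0575), *Ddx52* (-0.0592 to 0.0038), *Mnt* (-0.127 to 0.0335) and *Mki67* (-0.0474 to 0.0306; 0.0306, 0.0058, 0.0212 and 0.0158), and *Mki67* also turned with DESeq2 (0.0016), RLE scaling (0.0016) and no filter (0.0076). Over the 98 single genes compared in this way, 1347 comparisons with an alternative kept direction and call, 223 lost the call, 77 gained it and 14 reversed. The lowest count of an assembly gene was 558, whereas markers of other cells near 0 CPM were limited by depth.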
